A study of Mus musculus with 12 samples.

Results

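The regions described here were 524 distal peaks of H3K4me1 in mouse small-intestinal crypts that also carried H3K27me3, out of 54642 H3K4me1 peaks called in crypts, or 0.959% of that list. They were selected on called peaks: a crypts H3K4me1 peak was taken when it lay more than 1 kb from every protein-coding transcription start site, overlapped an H3K4me1 peak of villi and an H3K27me3 peak of crypts by at least 1 bp, and met no H3K4me3 peak of crypts. Of the 54642 peaks, 37644 were distal, 30413 of these also met a villi H3K4me1 peak, 819 of these met crypts H3K27me3, and 524 of the 819 were free of crypts H3K4me3. These regions are called poised candidates below, after the pair of marks alone, since no mark of active enhancers such as H3K27ac and no transcript level was measured in these files. Because the rule used both H3K4me1 lists and the crypts lists of H3K27me3 and H3K4me3, the presence of those marks is a description, and the villi lists of H3K27me3 and H3K4me3, the H3K9 methylation lists, position and sequence are what the rule left free.

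Enhancers are regulatory sequences away from start sites, and their nucleosomes commonly carry monomethylation of histone H3 at lysine 4. Trimethylation of lysine 27 is laid down by the Polycomb complex PRC2 and marks silent developmental genes, often over unmethylated CpG-rich DNA. Distal sites with both marks have been described as poised enhancers, which in embryonic cells lie near genes of lineages not yet formed. In the small intestine, crypts hold the stem, progenitor and Paneth cells, and villi hold the differentiated cells that derive from them.

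The study profiled chromatin of both compartments by ChIP-Rx, in which a fixed share of chromatin of another species, here 5% of Drosophila S2 cells, is added before immunoprecipitation. Villi are the differentiated fraction, scraped off mouse small intestine, and crypts the fraction released afterwards with EDTA; neither group is labelled with a genetic change or a treatment, and strain, age and number of animals were not given in the sources used here. Each compartment gave 1 library for each of 5 H3 modifications, so differences between crypts and villi could not be checked against replicates and are given without p-values. The study asked about clipping of the H3 tail in villi, and the comparison made here follows the poised candidates from crypts into villi. Both fractions hold a mixture of cells, so a peak lost from 1 cell type and a change in the share of that type cannot be told apart.

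For every peak the files give a position and a score, taken as the authors' −log10 p-value of the call. Every score was 10 or more, the level that corresponds to the stated threshold of 1e-10. The score grows with the depth of its library and is not scaled by the spike-in, so it ranks peaks within 1 list and is given for crypts and villi side by side only as a record of both calls. The villi H3K27me3 list, with 13797 peaks over 35.6 Mb, was larger than that of crypts, with 7611 peaks over 20.3 Mb, which bears on each count of candidates with H3K27me3 in villi. The H3K4me1 lists held 54642 and 55341 peaks and the H3K4me3 lists 16489 and 16977 peaks, in crypts and villi. The labels were checked on H3K4me3 within 1 kb of the start sites of marker genes, which separates active promoters but not the compartments by itself. All 7 villi markers, such as Vil1 and Alpi, had H3K4me3 in both compartments, and of 6 crypts markers 5 had it in crypts and 4 in villi, with Olfm4, a stem cell gene, in crypts only and Lyz1, a Paneth cell gene, in neither. Depth cannot be read from these lists, which give no counts of reads, and the 95% Wilson intervals below cover counting error over peaks only, although neighbouring peaks are not independent.

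The central 300 bases of 6 poised candidates show the range of their sequence, from CpG-poor DNA to DNA as CpG-rich as a CpG island. They are the first in each of 6 rankings used below whose window met no annotated exon, and they were read from the forward strand of GRCm38, the assembly that mm10 names, with every CpG dinucleotide in capitals.
Foxd4, chr19:24897436-24897735, outside genes, 22 CpG, the highest in crypts H3K27me3 among CpG-rich candidates whose window met no exon: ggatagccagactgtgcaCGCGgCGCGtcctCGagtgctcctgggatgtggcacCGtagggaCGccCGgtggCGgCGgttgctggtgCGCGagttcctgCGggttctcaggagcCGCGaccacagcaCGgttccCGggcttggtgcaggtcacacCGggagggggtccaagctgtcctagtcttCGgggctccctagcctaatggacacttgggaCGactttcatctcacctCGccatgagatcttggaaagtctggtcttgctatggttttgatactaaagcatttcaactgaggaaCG
Pax6, chr2:105681118-105681417, in an intron, 10 CpG, in the crypts H3K27me3 peak with the highest score of all: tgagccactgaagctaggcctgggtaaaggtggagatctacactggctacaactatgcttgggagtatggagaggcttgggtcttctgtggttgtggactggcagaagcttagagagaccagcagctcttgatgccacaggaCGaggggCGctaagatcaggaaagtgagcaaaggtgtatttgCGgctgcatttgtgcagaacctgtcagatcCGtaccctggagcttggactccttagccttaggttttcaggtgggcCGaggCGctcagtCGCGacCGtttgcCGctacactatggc
Pax2, chr19:44750700-44750999, outside genes, 10 CpG, the highest in H3K27me3 of the 4 candidates nearest to Pax2: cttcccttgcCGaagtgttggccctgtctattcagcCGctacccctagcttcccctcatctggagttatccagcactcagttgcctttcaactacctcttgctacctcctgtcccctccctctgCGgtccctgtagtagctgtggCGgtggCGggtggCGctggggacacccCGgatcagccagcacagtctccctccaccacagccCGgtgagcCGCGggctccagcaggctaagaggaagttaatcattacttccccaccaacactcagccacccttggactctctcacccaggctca
Aldh4a1, chr4:139628928-139629227, in an intron, 5 CpG, with an H3K4me3 peak in villi: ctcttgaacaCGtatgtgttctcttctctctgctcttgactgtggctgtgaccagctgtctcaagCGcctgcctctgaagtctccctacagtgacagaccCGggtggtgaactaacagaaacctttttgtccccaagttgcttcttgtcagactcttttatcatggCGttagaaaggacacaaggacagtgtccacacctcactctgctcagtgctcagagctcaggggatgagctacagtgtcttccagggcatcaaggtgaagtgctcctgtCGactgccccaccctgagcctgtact
Sept9, chr11:117397581-117397880, outside genes, 2 CpG, with no H3K27me3 peak in villi: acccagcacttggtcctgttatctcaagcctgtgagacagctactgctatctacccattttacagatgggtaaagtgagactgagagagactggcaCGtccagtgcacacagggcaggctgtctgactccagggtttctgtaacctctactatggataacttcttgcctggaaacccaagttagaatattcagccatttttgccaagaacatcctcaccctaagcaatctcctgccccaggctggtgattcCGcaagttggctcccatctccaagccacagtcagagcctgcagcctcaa
Syne3, chr12:104945496-104945795, in an intron, 1 CpG, with the highest H3K4me1 score in crypts and no H3K27me3 peak in villi: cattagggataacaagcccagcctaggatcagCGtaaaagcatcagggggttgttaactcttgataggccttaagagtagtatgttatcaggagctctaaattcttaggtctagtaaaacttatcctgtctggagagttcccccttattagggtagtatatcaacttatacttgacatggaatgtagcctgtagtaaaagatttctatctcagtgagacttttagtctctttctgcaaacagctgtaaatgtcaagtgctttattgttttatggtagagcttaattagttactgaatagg
The windows at Foxd4, Pax6 and Pax2 had a CpG observed over expected ratio, the number of CpG divided by the number that the C and G content would give, of 0.813, 0.464 and 0.393. The ratio was 0.246 at Aldh4a1, 0.107 at Sept9 and 0.0942 at Syne3. The Foxd4, Pax6 and Pax2 candidates had H3K27me3 in both compartments and those at Sept9, Syne3 and Aldh4a1 in crypts only, but the windows were picked for such values and carry no relation between CpG and H3K27me3.

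The poised candidates were shorter and weaker than H3K4me1 peaks without H3K27me3, as were other H3K4me1 peaks with it. Their crypts H3K4me1 peaks had a median width of 1026.5 bp (quartiles 757.5 and 1581.5 bp) and a median score of 16.6, against 1596 bp and 21.8 for the 25478 distal crypts H3K4me1 peaks that were shared with villi and carried neither H3K27me3 nor H3K4me3 in crypts. These 25478 peaks are the comparison class used below and are called unmarked distal peaks. The medians were 716.5 bp and 12.0 for distal peaks with H3K27me3 and no villi H3K4me1, and 1197.5 bp and 19.6 for peaks with H3K27me3 near start sites, so low width and score were not particular to the candidates. The candidates lay a median of 11226 bp from the nearest protein-coding start site (quartiles 3978.75 and 30537 bp, highest 607794 bp), nearer than the 20695 bp of unmarked distal peaks. Within 1 to 5 kb of a start site were 163 of 524, within 5 to 20 kb 169, within 20 to 100 kb 147, and beyond 100 kb 45.

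Their place relative to genes also differed from that of unmarked distal peaks. The centre of 63 of 524 candidates lay in a coding exon (12.0%, 95% Wilson interval 9.51 to 15.1%), against 1.25% of unmarked distal peaks. Introns held 159 candidates (30.3%), against 52.0%, and 231 candidates (44.1%) lay outside annotated genes, against 38.0%. A further 20 centres were in untranslated exons and 51 in non-coding genes. A start site of a gene of any type, non-coding genes included, lay within 1 kb of 104 candidates (19.8%) and of 9.71% of unmarked distal peaks, so a part of the candidates were close to start sites that the rule did not use. No candidate was on chromosome X, which held 141 of the 25478 unmarked distal peaks. A count of 0 among 524, with 3 counts as the limit, allows a share of up to 0.573%, and the Wilson interval reaches 0.728%, above the 0.553% of unmarked distal peaks.

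The candidates nearest to Pax2, which encodes a paired-box regulator of kidney and ear development, illustrate a domain with several of them. Pax2 and Nr2f2 were nearest to 4 candidates each, BC107364 to 4 and Rnf220 to 5. At Pax2 the 4 candidates lay 83560, 13941 and 4765 bp from a start site on one side and 76136 bp on the other, and all 4 were covered over 100% of their length by H3K27me3 in crypts and in villi. Their crypts H3K4me1 scores were 10.3, 22.6, 35.1 and 20.6, in order of position, and the villi scores were 11.1, 36.1, 12.9 and 25.6. The crypts H3K27me3 scores were 21.4, 27.3, 52.7 and 28.6, and those of villi were 43.9, 57.3, 57.3 and 28.1. An H3K4me3 peak was present in villi at the second, with a score of 17.1, and at the fourth, with a score of 14.3.

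**Figure D1:**
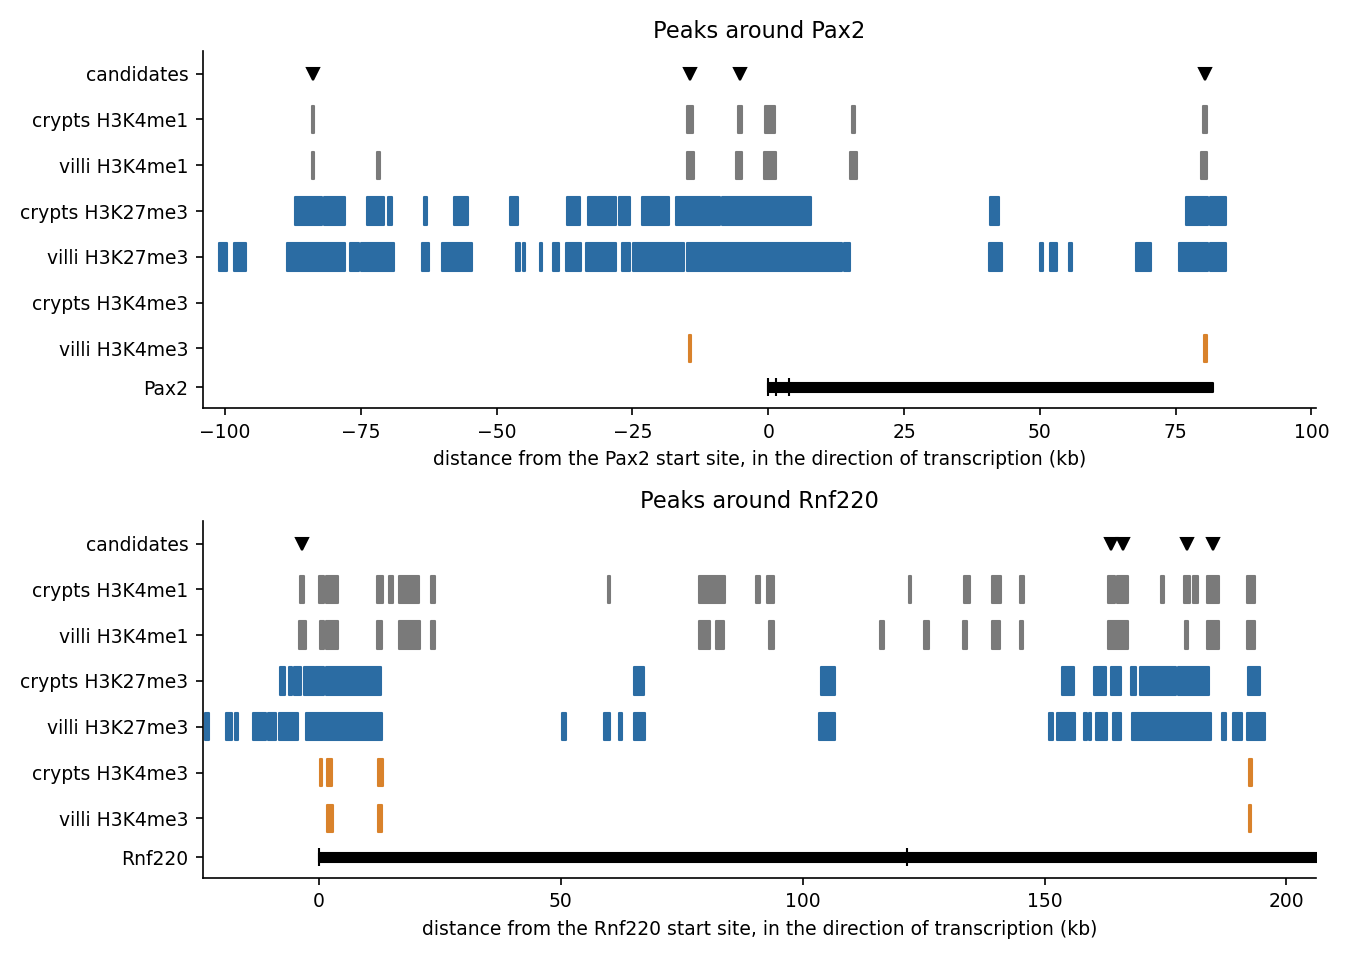
Called peaks around Pax2 and Rnf220, plotted as distance in kb from the start of the gene in the direction of transcription; each bar is 1 peak, triangles mark the poised candidates, and ticks on the black gene bar mark annotated start sites. All 4 candidates of Pax2 sit inside H3K27me3 of both compartments and 2 of them meet a villi H3K4me3 peak. At Rnf220, 1 of the 5 candidates meets no H3K27me3 in villi and lies between villi H3K27me3 peaks.

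At Rnf220, which encodes a RING-type ubiquitin ligase, the 5 candidates differed among themselves. The candidate at chr4:117317021-117318161 was covered fully by H3K27me3 in both compartments, with scores of 25.3 in crypts and 31.7 in villi. The other 4 were covered over 14.8 to 58.8% in crypts. Among them, the one 3035 bp from a start site overlapped the ends of crypts H3K27me3 peaks on both sides. These covered 32.2% of it, and the highest score was 35.0. It met no H3K27me3 peak in villi but lay between villi peaks that ended at -4.374 kb and began at -2.786 kb from the start of the gene. At Nr2f2, an orphan nuclear receptor gene, 2 of 4 candidates were fully covered in both compartments, with crypts scores of 37.1 and 37.5 and villi scores of 26.0 and 48.7, whereas the candidate 139719 bp away was covered over 0.27% in crypts and met no H3K27me3 peak in villi. At Kirrel3, a gene for an adhesion molecule of the immunoglobulin family, the 3 candidates had crypts H3K4me1 scores of 61.2, 33.1 and 58.0 and villi scores of 24.5, 18.7 and 27.7, and were covered by H3K27me3 over 71.8, 54.6 and 49.7% in crypts and over 60.2, 100 and 50.3% in villi. Mecom and Runx3, which encode transcription factors of blood and other lineages, and Slc22a7, an organic anion transporter gene, were nearest to 3 candidates each. The 3 of Slc22a7 lay inside another gene, Ttbk1, 14516 to 21886 bp from the Slc22a7 start site. All 9 of these candidates had H3K27me3 in villi. So did the 3 of Gm6657, the 4 of BC107364 and both of Nrp2, a receptor gene of axon guidance. These counts were near the share over all 524 candidates, 88.9%.

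In all, 439 genes were nearest to a candidate, 368 of them to 1, 62 to 2 and 9 to 3 or more. Genes are named by the nearest start site, and of 242 candidates inside a gene body this belonged to another gene for 52. The gene lists that follow were chosen with earlier results of these data known, so a count is read against the unmarked distal peaks and supports nothing by itself. Genes of 18 lists were nearest to 123 of 524 candidates (23.5%, interval 20.0 to 27.3%) and to 6.20% of the unmarked distal peaks, and 117 of the 123 had H3K27me3 in villi, beside 88.9% of all 524 candidates.

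Homeobox regulators, which set the identity of body segments and organs, made up the longest of these groups. They were nearest to 51 candidates (9.73%, interval 7.48 to 12.6%) and to 0.475% of unmarked distal peaks. Of 148 genes on the list, 35 had a candidate, or 23.6%, against 2.01% of the 21842 protein-coding genes annotated. Of these 51 candidates, 50 had H3K27me3 in villi, beside 466 of all 524 (88.9%). H3K4me3 was present in villi at 9 of the 51, beside 47 of all 524 (8.97%). Pax2 led with 4, and 13 further genes had 2 each, of which Pax6 and Meis2 come first along the genome. The Meis2 candidates lay 203432 and 5734 bp from a start site of this gene of the TALE homeobox class, were fully covered by H3K27me3 in both compartments, and had scores of 24.3 and 46.2 in crypts and 28.5 and 26.9 in villi.

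Other developmental factors followed with smaller counts. Forkhead factors were nearest to 8 candidates (1.53% against 0.389% of unmarked distal peaks) at 7 of 33 genes, all 8 with H3K27me3 in villi, near the 88.9% of all candidates, and Foxc1, which acts in mesenchyme and vessels, had 2. The Foxc1 candidates had H3K27me3 scores of 51.4 and 31.8 in crypts and 38.2 and 26.7 in villi. Foxd2, Foxo6 and Foxl1 had 1 each, and the Foxd2 candidate had scores of 48.8 in crypts and 47.5 in villi. The Foxd4 candidate shown above had scores of 48.8 in crypts and 64.7 in villi. Basic helix-loop-helix factors had 10 candidates (1.91% against 0.361%) at 9 of 56 genes, all 10 with H3K27me3 in villi, again near 88.9%. Hand1, a heart and trophoblast factor, had 2 of them, with H3K27me3 scores of 42.5 and 27.7 in crypts and 33.4 and 28.6 in villi. Twist2, a mesenchymal factor, Hey1, a repressor downstream of Notch, and Neurog2, a proneural factor, had 1 each. A mixed list of zinc finger and other identity regulators had 13 candidates (2.48% against 0.467%) at 8 of 55 genes, 12 with H3K27me3 in villi, led by the nuclear receptor gene Nr2f2 with 4 and the Runt-domain gene Runx3 with 3, and followed by the AP-2 genes Tfap2c and Tfap2e with 1 each. The Sox list had 3 (0.573%, interval 0.195 to 1.67%, which holds the 0.228% of unmarked distal peaks), at Sox1, Sox2 and Sox4. The T-box list had 4 (0.763% against 0.0746%), 2 at Tbx3 and 1 each at Tbx15 and Tbx20. The Sox4 candidate and 1 of the Tbx3 candidates met no H3K27me3 peak in villi.

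Signalling genes were nearest to 2 to 8 candidates a list, and for the Wnt, BMP and TGF-beta, and axon guidance lists the interval of the share held that of unmarked distal peaks. FGF and Notch genes had 8 candidates at 7 of 41 genes (1.53% against 0.290%), with 2 at Fgf21, a metabolic hormone gene, and 1 each at Fgf23, Fgfr2, which encodes an FGF receptor, and Fgf4. Wnt ligands, receptors and antagonists had 5 (0.954% against 0.518%), including the ligand genes Wnt3a and Wnt1, the antagonist gene Sfrp2 and Lef1, a transcription factor of the pathway. BMP and TGF-beta genes had 4 (0.763% against 0.522%), of which 2 at Bmp4, a ligand made by the mesenchyme under the villi, and 1 each at Bmp7 and Gdf6. Hedgehog genes had 2 (0.382%, interval 0.105 to 1.38%, against 0.0981%), 1 at Shh, the ligand, and 1 at Ptch1, its receptor. All 19 of these candidates had H3K27me3 in villi, a count near the 88.9% of all candidates. The Shh candidate was fully covered by H3K27me3 with scores of 16.1 in crypts and 30.2 in villi. Axon guidance and adhesion genes had 7 (1.34% against 0.832%), with 2 at Nrp2 and 1 each at Cdh23, Unc5b and Efna2. The Nrp2 candidates were covered over 49.9 and 38.9% in crypts and over 56.7 and 50.7% in villi.

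The genes of the intestinal epithelium were counted by the same lists. Of 25 intestinal identity factors none was nearest to a candidate, although they were nearest to 217 of the unmarked distal peaks (0.852%). The Wilson interval for 0 of 524 reaches 0.728%, below that share. The lists for stem, Paneth, goblet and tuft cells and for GATA factors also had no candidate, but their shares of unmarked peaks, 0.396 and 0.118%, lie inside that interval. These counts go by the nearest start site. By position, 1 candidate lay in an intron of Lgr5, the stem cell marker of the crypt base, and was assigned to A930009A15Rik, whose start site was 7819 bp away. The candidate in Lgr5, named after its values were seen, was covered by H3K27me3 over 52.8% in crypts and 100% in villi. The brush border and villus list had 2 (0.382%, interval 0.105 to 1.38%, against 0.604%), both at Slc15a1, which encodes the peptide transporter of enterocytes. These Slc15a1 candidates were covered by crypts H3K27me3 over 15.8 and 15.2%, and the villi H3K27me3 list covered 0.42% of the first and none of the second. The first met a villi H3K4me3 peak with a score of 11.0. The enteroendocrine list had 3 (0.573% against 0.137%), of which 2 at Pax6 and 1 at Nkx2-2, both regulators of hormone-producing cells and also on the homeobox list. The cell cycle list had 4 candidates (0.763% against 0.255%), 2 at Cdkn1c and 1 each at Cdkn1a and Cdkn2a, all inhibitors of cyclin-dependent kinases. The Cdkn2a candidate lay in a crypts H3K27me3 peak with a score of 52.7 and a villi peak with a score of 45.0, whereas that of Cdkn1a lay in a crypts peak with a score of 10.7 and met none in villi. Markers of other cell types were nearest to 2 candidates (0.382% against 0.0981%), 1 at Col1a1 of fibroblasts and 1 at Kdr of endothelium, and both had H3K27me3 in both compartments.

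In the sequence itself the candidates were richer in GC and in CpG than unmarked distal peaks. The median GC content of the central 300 bp was 54.7% (quartiles 47.9 and 62.0%), against 46.3% for unmarked distal peaks. Over the whole peak the CpG ratio had a median of 0.471 (quartiles 0.270 and 0.641), against 0.192 (0.142 and 0.246). CpG-rich DNA, defined here as GC over 50% with a ratio over 0.6 in the whole peak, made up 148 of 524 candidates (28.2%, interval 24.6 to 32.2%) and 26 of 25478 unmarked distal peaks (0.102%). The H3K4me1 peaks with crypts H3K27me3 within 1 kb of a start site, 1624 in number, were richer still, with a median ratio of 0.677. The 92 distal peaks with crypts H3K27me3 that met no villi H3K4me1 peak had a median ratio of 0.367. Repeats, as soft-masked bases, made up a median of 8.71% of a candidate and 17.8% of an unmarked distal peak.

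**Figure D2:**
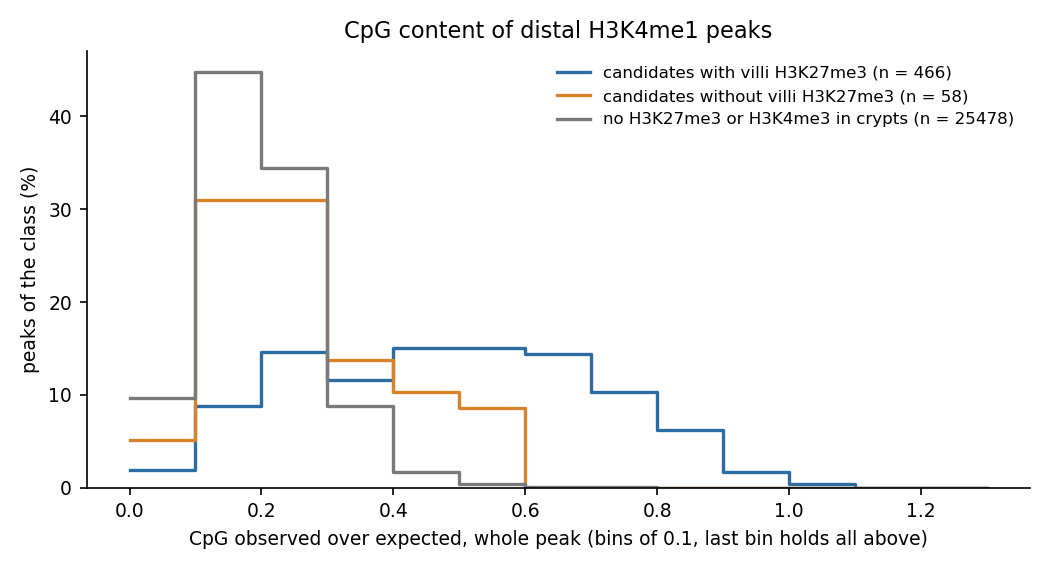
CpG observed over expected ratio of whole H3K4me1 peaks, in bins of 0.1, as the percentage of each class: poised candidates with a villi H3K27me3 peak (466), those without (58), and unmarked distal peaks (25478). The candidates with villi H3K27me3 have a median ratio of 0.492, those without a median of 0.242, nearer to the 0.192 of unmarked distal peaks.

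Short motifs followed this composition in part. The letters were searched on both strands of the central 300 bp. The SP motif GGGCGG was in 148 of 524 candidates (28.2%, interval 24.6 to 32.2%), in 6.10% of unmarked distal peaks and in 7.51% of all 37644 distal crypts H3K4me1 peaks, and it holds a CpG itself. The GATA motif AGATAA was in 13.9% of candidates (11.2 to 17.2%), 20.7% of unmarked distal peaks and 20.3% of all distal peaks. The letters CAAAGTCCA, bound by HNF4 factors of enterocytes, were in 1 candidate (0.191%, interval 0.0337 to 1.07%), in 2.02% of unmarked distal peaks and in 1.80% of all distal peaks. The shares for CDX (TTTATGG, 6.30% against 5.62%), TCF/LEF (CTTTGAT, 6.49% against 6.17%), KLF (GGGTGTGG, 4.58% against 5.33%) and an E-box (CAGCTG, 19.7% against 17.1%) lay within the candidates' intervals in this window; over all distal peaks these shares were 5.47, 6.07, 5.07 and 17.0%. A match is a description of the letters and not a bound site, and GC content was not held equal between the classes.

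The promoters nearest to the candidates often carried H3K27me3 as well. It was present in crypts within 1 kb of the nearest start site for 319 of 524 candidates (60.9%, interval 56.6 to 65.0%) and for 11.0% of unmarked distal peaks. For 163 of the 319 the promoter carried H3K27me3 without H3K4me3, and for 156 both. A promoter with H3K4me3 alone was nearest to 132 candidates (25.2%) and to 76.4% of unmarked distal peaks. The share with H3K27me3 at the promoter was 84.0% for candidates 1 to 5 kb away, 59.2% at 5 to 20 kb, 44.9% at 20 to 100 kb and 35.6% beyond 100 kb, whereas among unmarked distal peaks it ran from 7.73% at 1 to 5 kb to 15.1% beyond 100 kb. For 103 candidates (19.7%) the same crypts H3K27me3 peak also covered a start site, and for the other 421 it did not. Such peaks belonged to 49.1% of candidates at 1 to 5 kb, 13.6% at 5 to 20 kb and none farther away, so the H3K27me3 that chose the candidate is in part that of the promoter. Among candidates whose peak covered no start site, the share with H3K27me3 at the promoter was 71.1% at 1 to 5 kb and 52.7% at 5 to 20 kb. In villi the nearest promoter carried H3K27me3 for 344 candidates, of which 314 in both compartments and 30 in villi alone, and for 5 it carried it in crypts alone.

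Most poised candidates kept H3K27me3 in villi. A villi H3K27me3 peak met 466 of 524 (88.9%, interval 86.0 to 91.3%), beside a background of 5.9% over all 54642 crypts H3K4me1 peaks. Among unmarked distal peaks it met 230 of 25478 (0.903%). The 92 distal peaks with crypts H3K27me3 but no villi H3K4me1 met villi H3K27me3 in 79 cases (85.9%, interval 77.3 to 91.6%), which overlaps the interval of the candidates, and the 1624 near start sites did so in 1526 cases (94.0%, lower bound of the interval 92.7%), above it.

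**Figure D3:**
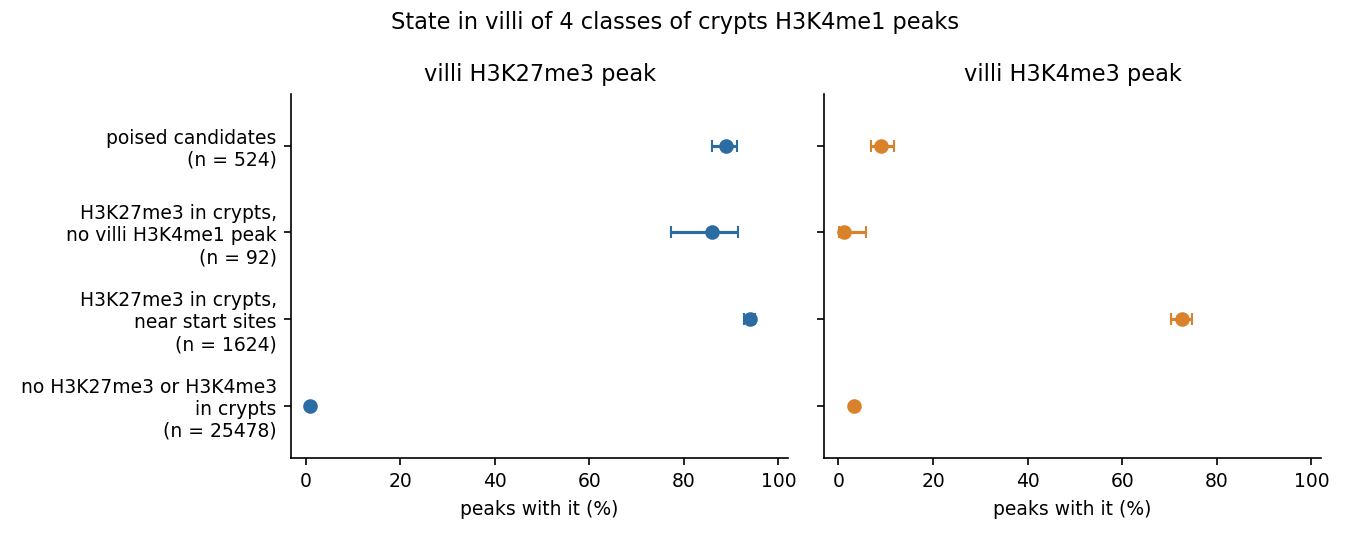
Percentage of crypts H3K4me1 peaks that meet an H3K27me3 peak (left) or an H3K4me3 peak (right) in villi, for 4 classes with their numbers; points are shares and bars 95% Wilson intervals, some smaller than the point. The poised candidates sit at 88.9% for H3K27me3 and 8.97% for H3K4me3, against 94.0% and 72.6% for peaks with H3K27me3 near start sites.

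Seen from H3K27me3, 533 of 7611 crypts peaks held the candidates, 509 with 1, 23 with 2 and 1 with 3. They had a median width of 3007 bp and a median score of 19.7, against 1726 bp and 14.4 for the other 7078 peaks. Of the 533, 493 met a villi H3K27me3 peak (92.5%, interval 89.9 to 94.4%), and of the other 7078, 6385 did (90.2%, interval 89.5 to 90.9%), so these intervals overlapped. Among the others, 3035 of 3520 distal H3K27me3 peaks without H3K4me1 in crypts met one (86.2%, interval 85.0 to 87.3%). When the 533 and these 3520 peaks were split at the quartiles of score of the H3K27me3 list, the shares were 69.4% and 76.5% below the first quartile, 85.0% and 85.4% from there to the median, 97.3% and 96.4% from the median to the third quartile and 99.6% and 100% above it, with candidates first. In each of the 4 ranges the 2 intervals overlapped, so a difference in retention at equal score was not detectable with these numbers. The widest H3K27me3 peak that held a candidate spanned 72697 bp in crypts, and the widest in villi 110743 bp.

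Within the candidates, retention followed the strength and the extent of H3K27me3 in crypts. It was 73.2% (interval 64.9 to 80.2%) below the first quartile of crypts H3K27me3 score, 87.4% up to the median, 95.4% up to the third quartile and 99.2% (95.8 to 99.9%) above it. A weak peak lies near the limit of 10 in its own list, and the part of that limit in these differences was not tested. Candidates fully covered by crypts H3K27me3 met a villi peak in 260 of 264 cases (98.5%), those covered over 50% or more but not fully in 95 of 105 (90.5%), and those covered over less than 50% in 111 of 155 (71.6%, interval 64.1 to 78.1%). By distance the share was 93.9% at 1 to 5 kb from a start site, 91.1% at 5 to 20 kb, 86.4% at 20 to 100 kb and 71.1% (interval 56.6 to 82.3%) beyond 100 kb. All 148 CpG-rich candidates met a villi H3K27me3 peak, against 318 of the other 376 (84.6%, interval 80.6 to 87.9%). Retention did not follow the H3K4me1 score in the same way, with 89.1, 94.4, 90.6 and 81.7% in the 4 ranges from low to high.

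**Figure D4:**
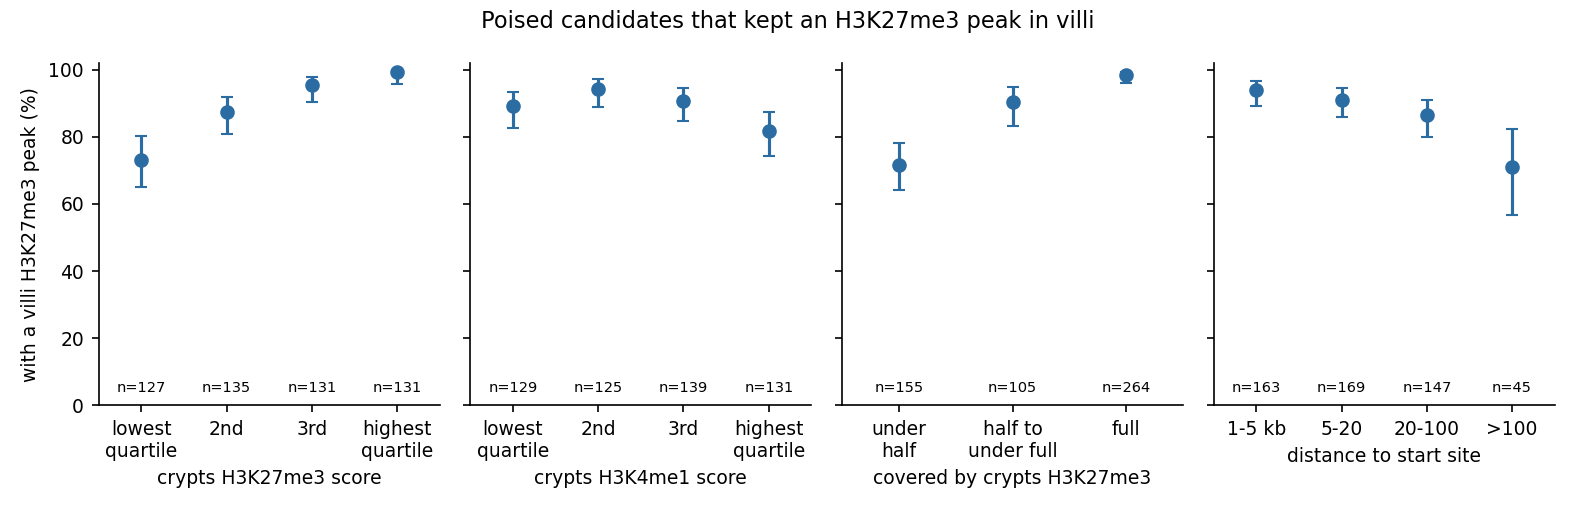
Percentage of poised candidates that meet an H3K27me3 peak in villi, split by crypts H3K27me3 score, crypts H3K4me1 score, the share covered by crypts H3K27me3 and the distance to the nearest start site; points are shares, bars 95% Wilson intervals and n the candidates in each subset. The share goes from 73.2 to 99.2% across H3K27me3 score and from 71.6 to 98.5% across coverage.

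The share of a candidate covered by H3K27me3 reached its ceiling of 100% for 264 candidates in crypts and for 286 in villi, so both medians were 100% and say little about extent. Of the 284 candidates not fully covered in both compartments, 123 were covered more in villi and 160 less. Of 264 candidates fully covered in crypts, 240 were fully covered in villi (90.9%, interval 86.8 to 93.8%). The H3K27me3 peaks that held candidates and paired with exactly 1 villi peak, 317 in number, were wider in villi by a median of 0.11 on the log2 scale (quartiles -0.03 and 0.42), and the other paired H3K27me3 peaks, 4419 in number, by 0.34 (0.04 and 0.80).

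The 4 candidates in the crypts H3K27me3 peaks with the highest scores and the Pax2 candidate already given were all fully covered in both compartments. Both Pax6 candidates lay in 1 peak of 35260 bp with a score of 63.5, and Pax6 is a regulator of eye, pancreas and enteroendocrine cells. In villi the H3K27me3 score there was 32.7, and their H3K4me1 scores were 13.6 and 17.0 in crypts and 20.2 and 23.5 in villi. The candidate nearest to Pip4k2a, a lipid kinase gene, had H3K27me3 scores of 62.5 in crypts and 41.9 in villi. At Hey1, where the candidate lies in a coding exon at chr3:8664531-8665144, they were 55.9 and 38.4.

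The 58 candidates without H3K27me3 in villi were mostly at the edge of a weak H3K27me3 peak in crypts. A median of 21.8% of their length was covered (quartiles 12.1 and 46.3%), against 100% for the 466 that met villi H3K27me3. Their median crypts H3K27me3 score was 13.4 against 23.6, their median H3K27me3 width 1354.5 bp against 3771.5 bp, and their median distance to a start site 24056.5 bp against 9488.5 bp. Their crypts H3K4me1 peaks had a higher median score, 21.3 against 16.5, and a larger median width, 1426.5 bp against 1009.5 bp. The GC content had a median of 48.3% against 55.2%. For 22 of the 58 (37.9%, interval 26.6 to 50.8%) the crypts H3K27me3 peak met a villi H3K27me3 peak outside the candidate, and for 30 (51.7%) a villi H3K27me3 peak lay within 1 kb. The median gap to the nearest villi H3K27me3 peak was 828 bp (quartiles 237.5 and 4678.75 bp).

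Single candidates of this kind varied in cover and in score. The one with the highest crypts H3K27me3 score among them was that at Rnf220 given above. The Sept9 candidate, at chr11:117396211-117399251 and 63866 bp from the start site of this septin gene, had H3K4me1 scores of 56.5 in crypts and 27.6 in villi and was covered over 61.9% by a crypts H3K27me3 peak with a score of 29.6. At Hip1, which encodes an endocytic adaptor, the candidate was covered over 24.8% by a peak with a score of 24.6, and at Gm29797 over 1.48% by a peak with a score of 22.5. The Syne3 candidate, at chr12:104944064-104947228 in an intron, had the highest crypts H3K4me1 score of all candidates, 72.1, against 37.2 in villi, and 13.5% of it was covered by a crypts H3K27me3 peak with a score of 11.8. Syne3 encodes a nesprin of the nuclear envelope.

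Cover by H3K27me3 varied among other candidates with high H3K4me1 scores. At Cbfa2t3, a corepressor gene, the H3K4me1 scores were 62.5 and 25.6, and H3K27me3 covered 8.19% in crypts and 4.98% in villi. The Kirrel3 candidates had crypts H3K4me1 scores of 61.2 and 58.0 and were covered over 71.8 and 49.7% in crypts. The Cbx8 candidate, named after its values were seen, had a score of 55.1 and was covered over 91.6%. Candidates with such scores were wide, 3151 bp at Cbfa2t3 against the median of 1026.5 bp, and cover is a share of that width.

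An H3K4me3 peak in villi met 47 of 524 candidates (8.97%, interval 6.81 to 11.7%), beside 3.36% of the 26002 distal crypts H3K4me1 peaks shared with villi and free of crypts H3K4me3. With the top 50% of each list by score it was 5 of 215 (2.33%, interval 0.997 to 5.33%), against 0.885% of unmarked distal peaks (0.736 to 1.06%), and these intervals overlap. In the full lists the share was 3.24% (interval 3.03 to 3.47%) for unmarked distal peaks alone and 1 of 92 (1.09%, interval 0.192 to 5.90%) for distal peaks with crypts H3K27me3 and no villi H3K4me1. It was 72.6% for peaks with H3K27me3 near start sites, which could also carry H3K4me3 in crypts. Of the 47, 45 also met villi H3K27me3 and 2 did not. In all, 421 candidates had H3K27me3 without H3K4me3 in villi (80.3%), 45 had both (8.59%), 2 had H3K4me3 without H3K27me3 (0.382%) and 56 had neither (10.7%). The rule had left out regions with crypts H3K4me3. The nearest crypts H3K4me3 peak was a median of 12866 bp from these 47 and of 20633 bp from all 524 candidates, and lay within 1 kb for 2 of the 47 and 11 of the 524. A candidate could therefore only gain an H3K4me3 peak in villi. Of 6 marker genes of other cell types, none had promoter H3K4me3 in crypts and 3 had it in villi. These were Ptprc of leukocytes, Cd3e of T cells and Col1a1 of fibroblasts, whereas Cdh5, Pecam1 and Acta2 had it in neither. The promoter of Cd3e also carried H3K27me3 in villi, and that of Col1a1 did so in both compartments. The part of such cells in the villi H3K4me3 peaks of candidates was not tested. Among CpG-rich candidates 21 of 148 had villi H3K4me3 (14.2%, interval 9.47 to 20.7%), and among the others 26 of 376 (6.91%, interval 4.76 to 9.94%).

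The highest villi H3K4me3 score at a candidate was 49.8, at Fgf15, which encodes a hormone of the distal small intestine that represses bile acid synthesis in the liver. This candidate, at chr7:144897968-144898767 in an intron 1404 bp from the start site, had H3K4me1 scores of 15.7 in crypts and 29.1 in villi and was fully covered by H3K27me3 in both, with scores of 42.4 and 33.4. Its promoter carried H3K4me3 and H3K27me3 in both compartments. The Aldh4a1 candidate, at chr4:139627341-139630815, followed with a villi H3K4me3 score of 37.2. Aldh4a1 encodes a mitochondrial enzyme of proline breakdown, and its candidate was covered over 42.6% by crypts H3K27me3 with a score of 22.6 and met none in villi. The second candidate with H3K4me3 and no H3K27me3 in villi was nearest to Ttll6 and had a villi H3K4me3 score of 10.0, at the limit of the list. This candidate was named for its count of 2 after its values were seen.

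The other 8 of the 10 highest villi H3K4me3 scores were at candidates that kept H3K27me3, as 88.9% of all 524 candidates did. These were Isl2 (36.7), a motor neuron homeobox gene, Scrt1 (30.5), a neuronal repressor gene, Smug1 (29.0), a DNA repair gene, Cbx8 (27.5), a Polycomb subunit gene, Hapln4 (26.0), Pou4f1 (24.0), Sp2 (21.6) and Foxc1 (21.0). The Isl2, Scrt1, Hapln4, Pou4f1 and Foxc1 candidates were fully covered by H3K27me3 in both compartments. At Cbx8 the cover was 91.6% in crypts and 49.6% in villi, and at Sp2 it was 34.9% in crypts and 100% in villi. Of the 10, only the Fgf15 and Aldh4a1 candidates had a CpG ratio under 0.4, 0.12 and 0.29.

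H3K4me1 peaks of candidates, all chosen to have one in villi, changed little in width between the compartments. Width is not scaled by the spike-in and does not measure intensity. The paper reports that normalized H3K4me1 intensity at its sites was strongly lower in villi. For the 494 candidates that paired with exactly 1 villi peak, the log2 width ratio of villi over crypts had a median of 0.05 (quartiles -0.28 and 0.31), and for unmarked distal peaks a median of -0.00 (quartiles -0.29 and 0.28). A peak over 1.5-fold wider in villi was found for 51 of 494 candidates (10.3%, interval 7.94 to 13.3%), beside 10.1% of all 38608 paired peaks. A peak over 1.5-fold narrower was found for 54 (10.9%, interval 8.48 to 14.0%), beside 11.1%. Both counts were near the background. For candidates with H3K27me3 in villi the median was 0.06 and for those without it -0.04.

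**Figure D5:**
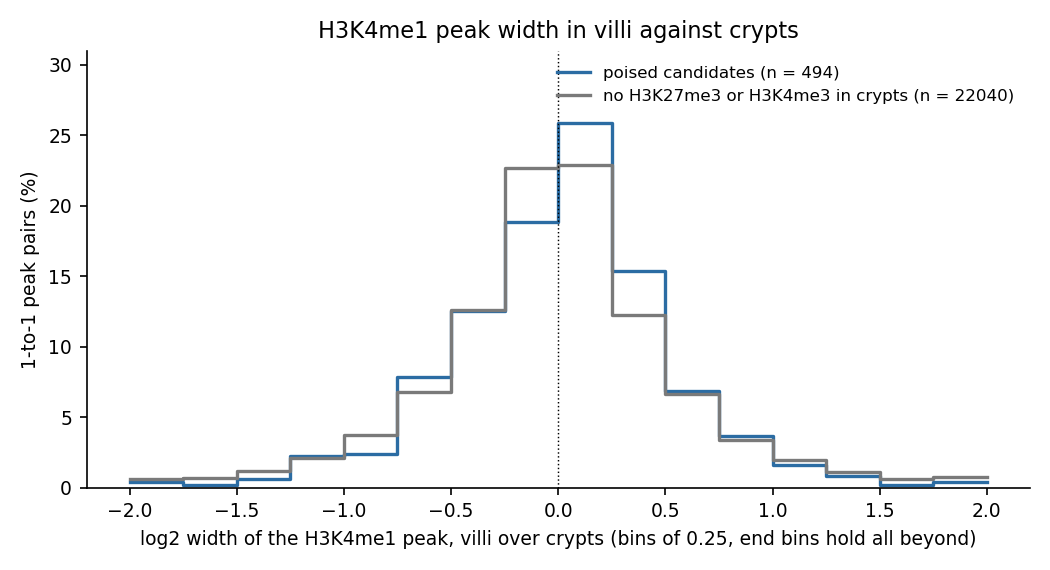
Log2 width ratio of the H3K4me1 peak, villi over crypts, in bins of 0.25, as the percentage of 1-to-1 pairs among 494 poised candidates and 22040 unmarked distal peaks; the dotted line marks equal width. Both distributions centre near 0, with medians of 0.05 and -0.00.

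At the extremes, the widest in villi was at En2, an engrailed homeobox gene, with a ratio of 1.82 on the log2 scale and H3K4me1 scores of 12.9 in crypts and 16.3 in villi. It was followed by a candidate of Tas1r2, a sweet taste receptor gene, with 1.81 and scores of 10.3 and 31.2, that of Wnt8b with 1.56 and the second of Tas1r2 with 1.45. These 4 were fully covered by H3K27me3 in both compartments, as were 240 of all 524 candidates. Both candidates of Tas1r2 lay inside another gene, Aldh4a1. The narrowest in villi was nearest to Iqgap2, a scaffold protein gene, but lay inside Sv2c, with -1.89 and scores of 14.7 and 14.1. It was followed by those of Ltbp3 with -1.79, Cdkn1c with -1.53, Lrp8 with -1.42 and Fars2 with -1.38. These 5 also met H3K27me3 in villi, as did 88.9% of all candidates.

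H3K9 methylation was nearly absent from the candidates. A single one, nearest to Zfp94, met H3K9me3 in crypts, with a score of 25.6, and the same one did so in villi, with a score of 29.4. That is 0.191% in each compartment, beside 0.2% in crypts and 0.0731% in villi over the 26002 distal peaks of the same kind. The H3K9me2 lists, with 6 peaks in crypts and 3 in villi, met no candidate.

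The limit of 1 kb separated candidates that looked alike. Just inside it lay the candidates of Fjx1, Fbxl16 and Tnfaip2, 1013, 1054 and 1058 bp from a start site, with CpG ratios of 0.85, 0.49 and 0.78. Just outside it lay peaks of Zfp580, Map1b and Rtbdn, 995, 920 and 914 bp away, with ratios of 0.74, 0.61 and 0.66. All 6 were fully covered by H3K27me3 in crypts and met H3K27me3 in villi.

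With the rule turned round, from villi to crypts, 711 distal villi H3K4me1 peaks met crypts H3K4me1 and villi H3K27me3 and no villi H3K4me3. Counted over these villi peaks, 466 met crypts H3K27me3 (65.5%, interval 62.0 to 68.9%) and 245 did not. The share was lower than the 88.9% found from crypts to villi, in lists of 7611 and 13797 H3K27me3 peaks, and the part of the unequal list sizes in this was not tested.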

How the data were processed

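ChIP-Rx libraries of mouse crypts and villi were grouped by compartment and antibody from their labels, 12 in all, of which the 10 immunoprecipitations had peak lists and the 2 inputs were not analysed here. The authors aligned reads to mm10 and dm6 with Bowtie 1.1.2, removed duplicates and reads of both genomes, and called peaks with MACS2 2.1.1, stated for the modifications other than H3K9me2. The deposited score was read as the −log10 p-value the authors obtained, each being 10 or more; a corrected value on that scale was not distinguishable in the files. Amounts of chromatin and antibody and the type of bead differ between the paper's methods and the labels. Gaps in the peak numbers show that the lists were reduced after numbering.

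Overlaps of at least 1 bp, distances, coverage and motif matches were computed with pysam 0.24.0 and pandas 2.3.3 on NumPy 2.4.6 and Python 3.11.15, intervals with SciPy 1.17.1 and figures with Matplotlib 3.10.9. Start sites, exons and gene types came from GENCODE M21, and sequence from the RefSeq copy of GRCm38, whose chromosome lengths match mm10. On 20000 simulated peaks the overlaps were tested and came out as the 13000 planted ones, and bedtools 2.31.1 gave the same 524 regions. A promoter reached 1 kb up- and downstream from a start site. Where a region met several peaks of a list, the highest score was used.

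The regions, the gene lists and the motifs were chosen with earlier results of these data known. Genes were named as the 10 with most candidates and up to 4 of each list. Single candidates were named as the 5 highest in crypts H3K4me1 or H3K27me3, the 10 highest in villi H3K4me3, the 5 highest without villi H3K27me3, the 5 largest width ratios each way and 3 on each side of the 1 kb limit, with ties by position; some of these are not reported here. As each group was 1 library, no statistical test could be run. Alternatives covered the overlap rule, the distance and type of start sites, the score, merging, autosomes, the H3K4me3 exclusion, the sequence window and the gene assignment.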

Additional observations from a re-analysis of the deposited data

How the results depend on the processing

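Of 37 alternative values, 26 stayed within the interval of the reported value or, for counts, within 1.5 times of it. The values for autosomes only are among the 26 but could not differ, since no candidate lay on chromosome X or Y. With an overlap of at least 50% of the peak, 360 regions were left, villi H3K27me3 met 91.7% of them and the median log2 width ratio of H3K4me1 was 0.10. With the top 50% of each list by score, 215 regions were left and villi H3K4me3 met 2.33% of them, against 0.885% of unmarked distal peaks, a value added after seeing the data. Villi H3K27me3 still met 89.3%. Over all 7 alternatives to the rule, villi H3K27me3 met 86.7 to 91.7% and villi H3K4me3 2.33 to 10.8%. In the central 1000 bp the motifs were found in 39.7% (GATA), 13.7% (CDX), 1.15% (HNF4), 14.7% (TCF/LEF), 13.0% (KLF), 56.1% (SP) and 47.1% (E-box) of the candidates, since the window is longer; in unmarked distal peaks the same shares were 51.8, 16.5, 4.91, 18.1, 14.0, 16.0 and 44.7%. For TCF/LEF the 18.1% lies just above the candidates' interval at this length, unlike in 300 bp. With the gene whose body holds the candidate in place of the nearest start site, 121 candidates in place of 123 belonged to a listed gene. No paired analysis was possible because each group has 1 library. Depth is unknown from the lists, so a mark that was not called may lie under the limit of its library.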
